A study of Mus musculus with 4 samples.

Results

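The costimulatory and checkpoint ligands are surface proteins with which macrophages and other antigen-presenting cells instruct T cells. The 8 genes examined here were chosen by name: Cd80, Cd86, Icosl, Cd274, Pdcd1lg2 and Cd276 of the B7 family, and Cd40 and Tnfsf9 of the TNF receptor and TNF ligand families. They are 8 of the 23545 genes that the array names, and 10 of the 31210 probes that carry a gene name belong to them. Cd80 and Pdcd1lg2 had several probes and the other 6 genes had 1 probe each. All 8 genes were measured well above background on at least 3 of the 4 arrays, and 7 of the 8 on all 4. Cd276 was the exception, because its probe was not well above background on the M1 array.

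The study asked whether Lamtor1, a lysosomal scaffold of the amino-acid-sensing complex, and the kinase mTOR are needed when macrophages take on the M2 state. RNA of bone marrow-derived macrophages (BMDMs) of 10-week-old C57BL/6J mice was hybridized to 4 arrays with 1 colour, with 1 array for each condition. Bone marrow cells were differentiated for 6 days in medium with L929 cell supernatant and stimulated for 2 days. With 1 array per condition there is no replicate check for any difference below, and no test or p-value is given.

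Wild-type M1 BMDMs received IFN-γ (20 ng per ml) and LPS (100 ng per ml), and wild-type M2 BMDMs received IL-4 (50 ng per ml). Lamtor1-deficient M2 BMDMs received the same dose of IL-4 and are labelled p18 (2400001E08Rik) -/-, the array's name for Lamtor1. Torin1-treated M2 BMDMs were wild type and received IL-4 at this dose together with 250 nM of the mTOR inhibitor Torin1. Every condition shared the strain, age and differentiation. Per the study's methods, deletion was by LysM-Cre in Lamtor1 flox/flox mice, a driver active in myeloid cells, and the methods name both Lamtor1 flox/flox littermates and purchased wild-type mice. Which of them gave the arrays is not given in the sources used here, and the labels call the control genotype wild type. No unstimulated BMDMs were on the arrays, so each level is described against IL-4-treated wild-type BMDMs.

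T cells need a second signal beside the antigen receptor, and the ligands of the B7 family deliver or withhold it. CD80 and CD86 bind CD28, which activates T cells, and CTLA-4, which restrains them. PD-L1, encoded by Cd274, and PD-L2, encoded by Pdcd1lg2, bind the inhibitory receptor PD-1. In macrophages, PD-L1 is known as a gene induced by interferons, and PD-L2 is known as a gene induced by IL-4 through STAT6. CD40 is a receptor on the macrophage that T cells engage through CD40 ligand, and it signals through TRAF adaptors to NF-κB.

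Cd274 and Pdcd1lg2 are neighbouring genes on mouse chromosome 19, and the levels of these ligands of the same receptor ran in opposite directions. The 250 bases upstream of their starts are shown for this pair because their levels ran apart although the genes adjoin. The sequences are those of RefSeq on GRCm38.p6, both on the + strand, at chr19:29367188-29367437 for Cd274 and chr19:29410669-29410918 for Pdcd1lg2. Capitals mark the matches to any of 3 motifs that were searched on both strands, and no matches overlapped each other.
Cd274: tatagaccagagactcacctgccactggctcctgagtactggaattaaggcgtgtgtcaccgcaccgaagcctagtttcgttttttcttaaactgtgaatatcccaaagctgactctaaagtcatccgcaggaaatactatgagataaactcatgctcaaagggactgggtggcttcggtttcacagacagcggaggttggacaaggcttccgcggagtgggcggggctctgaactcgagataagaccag
Pdcd1lg2: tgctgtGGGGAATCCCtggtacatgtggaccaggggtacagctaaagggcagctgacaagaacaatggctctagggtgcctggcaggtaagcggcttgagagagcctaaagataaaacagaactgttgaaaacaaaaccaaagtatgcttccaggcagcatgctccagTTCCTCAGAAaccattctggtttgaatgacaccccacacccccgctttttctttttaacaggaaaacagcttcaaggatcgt
The STAT6 motif, TTC and GAA with 4 bases between them, matched once in Pdcd1lg2, with its first base 82 bases before the start, and 5.85% of all 32851 promoters of this length hold a match. The NF-κB motif matched once in Pdcd1lg2, 244 bases before the start, and in 7.25% of all promoters. The interferon-response core, GAAA repeated after 2 bases (2.98% of all promoters), matched in neither window, and Cd274 held no match to any of these 3 motifs. Of the other 3 members with a RefSeq promoter entry, Icosl held an NF-κB match with its first base 111 bases before the start, and Cd80 and Cd276 held no match. A match is a string of letters and not evidence of binding, and a window without one says nothing about the factor. Cd40, Cd86 and Tnfsf9 had no entry.

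Each level below is the processed signal of the gene's brightest probe divided by the 75th percentile of all non-control probes on the same array, and it is called the relative signal. The value after ± is the error that the scanner software assigned to that signal, with n = 1 array. It has a floor of 10% of the signal, so the error of a log2 ratio is 0.2 or more. Spots of the same probe repeated on an array gave a smaller technical SD of the log2 ratio, between 0.09 and 0.098 over the 4 comparisons. Neither measure holds the spread between cultures. A difference of 2-fold, a log2 ratio of 1, was used to describe size. Probes differ in brightness, so levels are compared between arrays and never between genes.

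The label check on the targeted gene came first. The Lamtor1 probe kept 2.34% of the M2 level on the Lamtor1-deficient array, 113% on the Torin1-treated array and 77.2% on the M1 array. The macrophage identity of the cultures was checked on 7 markers, all of which were well above background on all 4 arrays but not all at even levels. Adgre1, a surface receptor that marks mouse macrophages, was 5.95-fold lower than in M2 without Lamtor1 and 7.02-fold lower after Torin1. Fcgr1, a receptor for IgG, was 31.1-fold and 24.4-fold lower, and the other 5 markers differed by less than 2-fold in these comparisons. In M1, Adgre1 and Csf1r were 2.05-fold and 2.36-fold lower and Fcgr1 was 5.62-fold higher. Their part in the levels of the ligands was not tested. Markers of other cells were uneven between arrays too. The summed relative signal of 6 neutrophil markers was 90.5 on the M2 array and between 4.41 and 6.3 on the other 3. All 6 T cell markers were well above background on the Lamtor1-deficient array, against 2 or 3 on the other arrays (on the Torin1-treated array the Cd4 spot was marked as an outlier, so 5 were measured there). In bulk RNA, fewer cells of a type and less RNA per cell cannot be told apart.

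Cd274 (PD-L1) was lowest in M2 BMDMs and higher under every other condition. Its relative signal was 14.6 ± 1.46 in M2, 74.4 ± 7.44 in Lamtor1-deficient, 259 ± 25.9 in Torin1-treated and 736 ± 73.6 in M1 BMDMs. The 4 arrays were therefore ordered M1, Torin1-treated, Lamtor1-deficient and M2, and each step between neighbours was larger than 2 errors. Against M2, Cd274 was 50.4-fold higher in M1 (log2 ratio 5.66 ± 0.2), 17.7-fold higher after Torin1 (4.15 ± 0.2) and 5.1-fold higher without Lamtor1 (2.35 ± 0.2). The Torin1-treated array was also 3.48-fold above the Lamtor1-deficient array (1.8 ± 0.2). The probe lies at chr19:29462363-29462422 on mm9, the build of the array annotation. Gene models of that build were not used here, so its exon is not stated for this or any other probe.

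Pdcd1lg2 (PD-L2) ran the opposite way. Its relative signal was 18.6 ± 1.86 in M2, 6.39 ± 0.639 in Lamtor1-deficient, 5.17 ± 0.518 in Torin1-treated and 0.585 ± 0.0607 in M1 BMDMs. M2 BMDMs stood highest and M1 BMDMs lowest, while the Lamtor1-deficient and Torin1-treated arrays lay between them and differed from each other by 0.31 ± 0.2 on the log2 scale, less than 2 errors. Against M2, Pdcd1lg2 was 31.7-fold lower in M1 (log2 ratio −4.99 ± 0.21), 2.9-fold lower without Lamtor1 (−1.54 ± 0.2) and 3.59-fold lower after Torin1 (−1.84 ± 0.2).

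Pdcd1lg2 was read by a pair of probes, at chr19:29545470-29545529 and chr19:29545473-29545532 on mm9. They overlap over 57 of their 60 bases with 2 mismatches, so they are not independent measurements. The 30 bases nearest the 3′ end of the overlap are shown because they hold those differences, C53T and G58A, with positions counted from 1 at the 5′ end of A_55_P2122075 and the differing bases in capitals.
A_55_P2122075: tggaagcatttaagcaacacgtCaagtGcc
A_55_P2187141: tggaagcatttaagcaacacgtTaagtAcc
The second probe gave 40.5-fold lower in M1, 3-fold lower without Lamtor1 and 3.78-fold lower after Torin1. It therefore ordered the 4 arrays as the brighter probe did.

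**Figure D1:**
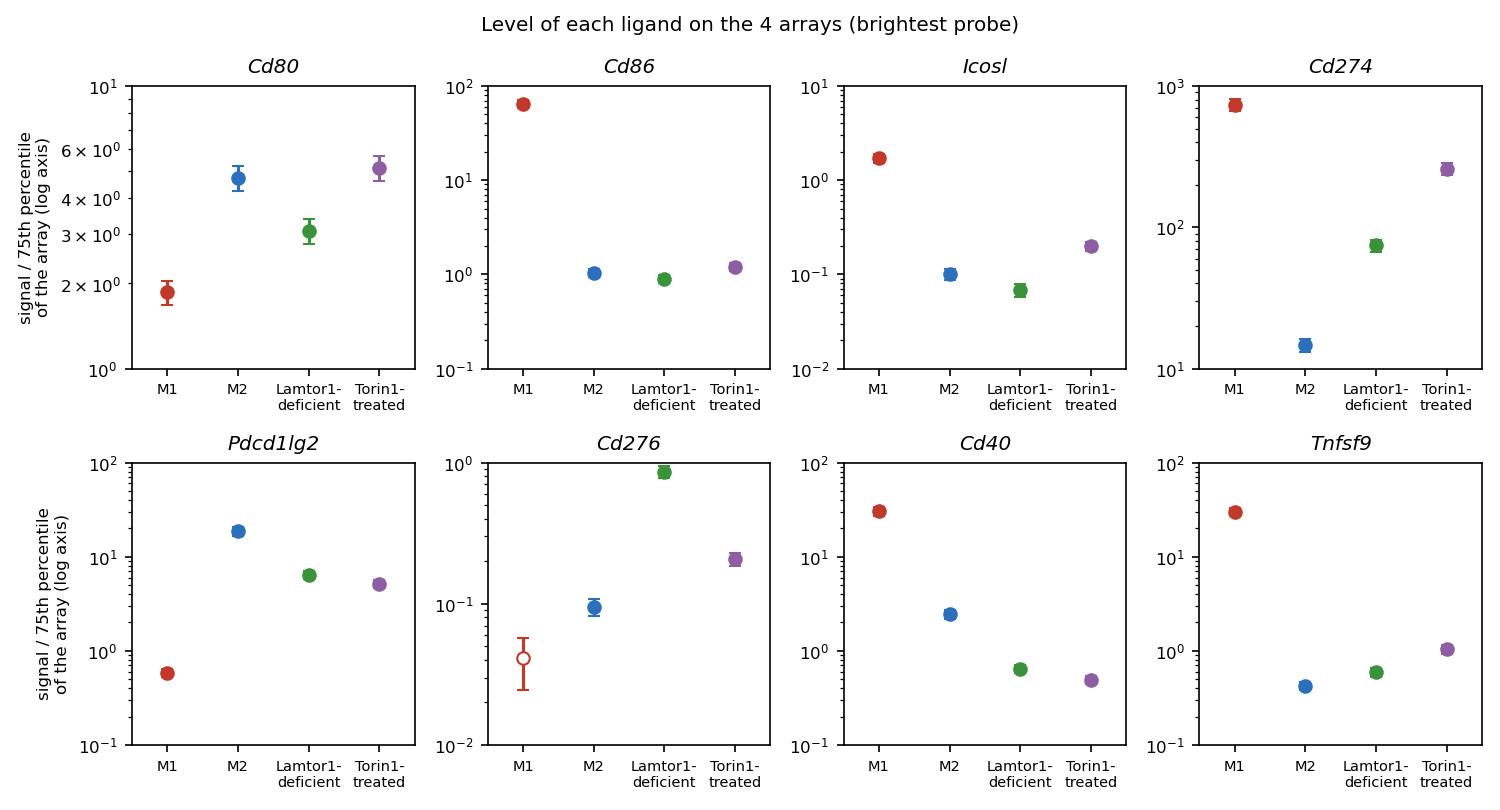
Relative signal of each ligand (processed signal over the 75th percentile of the array, log axis) on the M1, M2, Lamtor1-deficient and Torin1-treated arrays, 1 array each, for the brightest probe of a gene, with bars for the error given by the scanner software and an open point where the probe was not well above background. Each panel has its own axis, because levels of different probes are not compared, and Cd274 is lowest in M2 (14.6) where Pdcd1lg2 is highest (18.6).

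Cd80 and Cd86 share the receptors CD28 and CTLA-4 but did not share a pattern. Cd86 had a relative signal of 64.3 ± 6.43 in M1, 1.03 ± 0.103 in M2, 0.898 ± 0.0901 without Lamtor1 and 1.21 ± 0.121 after Torin1. M1 BMDMs stood 62.7-fold above M2 (log2 ratio 5.97 ± 0.2), and the 3 arrays of IL-4-treated cells lay close together. Lamtor1 loss gave −0.19 ± 0.2 and Torin1 gave 0.24 ± 0.2, each within 2 errors of no difference. The Cd86 probe is at chr16:36603961-36604020.

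Cd80 had a relative signal of 4.73 ± 0.473 in M2, 5.14 ± 0.514 in Torin1-treated, 3.07 ± 0.307 in Lamtor1-deficient and 1.86 ± 0.186 in M1 BMDMs. It was thus lowest under the M1 stimulus, 2.55-fold below M2 (log2 ratio −1.35 ± 0.2). Lamtor1-deficient BMDMs were 1.54-fold below M2 (−0.62 ± 0.2), and Torin1-treated BMDMs were within 2 errors of M2 (0.12 ± 0.2). A dimmer Cd80 probe gave other directions, with 1.5-fold higher in M1 (0.58 ± 0.23), 1.68-fold higher without Lamtor1 (0.75 ± 0.22) and 1.56-fold lower after Torin1 (−0.64 ± 0.24). The probes lie at chr16:38486772-38486831 (brighter) and chr16:38479343-38479402 (dimmer). With opposite signs in all 3 comparisons with M2, the direction for Cd80 depends on the probe.

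Icosl encodes the ligand of ICOS, a costimulatory receptor of activated T cells. Its relative signal was 1.71 ± 0.172 in M1, 0.2 ± 0.0214 in Torin1-treated, 0.1 ± 0.013 in M2 and 0.0686 ± 0.011 in Lamtor1-deficient BMDMs. M1 BMDMs stood 17.1-fold above M2 (log2 ratio 4.09 ± 0.24), and Torin1-treated BMDMs stood just short of 2-fold above M2 (1.0 ± 0.24). The difference between M2 and Lamtor1-deficient BMDMs, −0.55 ± 0.3, was less than 2 errors. The 2 perturbed arrays differed from each other, with Torin1-treated BMDMs 2.92-fold higher (1.55 ± 0.28). With normexp background correction this log2 ratio was 0.8, under 2-fold, and that of M1 over M2 was 3.01. The probe is at chr10:77542211-77542270.

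Cd276 encodes B7-H3, a member of the B7 family described as inhibitory in many settings. Its relative signal was 0.857 ± 0.0862 in Lamtor1-deficient, 0.206 ± 0.0221 in Torin1-treated and 0.0951 ± 0.013 in M2 BMDMs, and it was not well above background in M1 BMDMs (0.041 ± 0.0163). The Lamtor1-deficient array stood apart from the other 3. Cd276 was 9.01-fold higher without Lamtor1 (log2 ratio 3.17 ± 0.24) and 2.16-fold higher after Torin1 (1.11 ± 0.25). Torin1-treated BMDMs were 4.16-fold below Lamtor1-deficient BMDMs (−2.06 ± 0.21). With normexp background correction the log2 ratio was 2.18 without Lamtor1 and 0.7, under 2-fold, after Torin1. Against the lowest signal called well above background in M1, Cd276 was at least 1.45-fold lower in M1 than in M2. The array annotation places this probe at chr9:58372107-58372150, a span of 44 bases for a probe of 60 bases.

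Some markers of T cells, fibroblasts and dendritic cells were also higher on the Lamtor1-deficient array, where Cd276 was highest. The fibroblast markers Dcn and Pdgfra were 3.77-fold and 2.74-fold above M2, and the dendritic cell marker Ccr7 was 5.83-fold above. Of the 6 fibroblast and 8 dendritic cell markers, no other was 2-fold higher there and none was 2-fold lower. Of 6 T cell markers, 3 (Cd3d, Cd8a and Lck) were 2-fold or more above M2 and none was 2-fold lower. The median log2 ratio of the 6 was 2.5, where the median of all genes was 0.04. That median rests in part on Cd3d, Cd3g and Cd8a, whose M2 signals were not well above background. Cd3e and Cd4, well above background on both arrays, had log2 ratios of −0.02 and −0.39. Cd3d, Cd3g and Cd8a, which also mark T cells, were not well above background on the other 3 arrays, and against the lowest signal well above background they were at least 4.35-fold, 1.79-fold and 2.37-fold higher than in M2. For the 5 T cell markers measured on every array, the summed relative signal was 3.2 on the Lamtor1-deficient array. It was between 2.37 and 4.07 on the others. On each array most of this sum came from the Cd3e probe, so the sum mainly follows that probe, and probes differ in brightness. Lck was also 3.1-fold above M2 after Torin1. The part of these cell types in the level of Cd276 was not tested.

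Cd40 was the member of the TNF receptor family, and it was lower under both perturbations. Its relative signal was 30.3 ± 3.03 in M1, 2.45 ± 0.245 in M2, 0.643 ± 0.065 without Lamtor1 and 0.495 ± 0.0502 after Torin1. M1 stood highest, M2 next and the perturbed arrays lowest, with the last pair 0.38 ± 0.21 apart on the log2 scale, less than 2 errors. Cd40 was 12.4-fold higher in M1 than in M2 (log2 ratio 3.63 ± 0.2), 3.81-fold lower without Lamtor1 (−1.93 ± 0.21) and 4.95-fold lower after Torin1 (−2.31 ± 0.21). The probe lies at chr2:164897085-164897144.

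Tnfsf9 encodes 4-1BB ligand, which costimulates T cells through the receptor 4-1BB. Its relative signal was 29.8 ± 2.98 in M1, 1.04 ± 0.105 in Torin1-treated, 0.59 ± 0.0597 in Lamtor1-deficient and 0.425 ± 0.0435 in M2 BMDMs. The M1 array stood far above the other 3, and M2 was lowest. Tnfsf9 was 70.2-fold higher in M1 than in M2 (log2 ratio 6.13 ± 0.21) and 2.45-fold higher after Torin1 (1.3 ± 0.21), while the Lamtor1-deficient array was 1.39-fold above M2 (0.47 ± 0.21). The probe is at chr17:57247062-57247121.

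**Figure D2:**
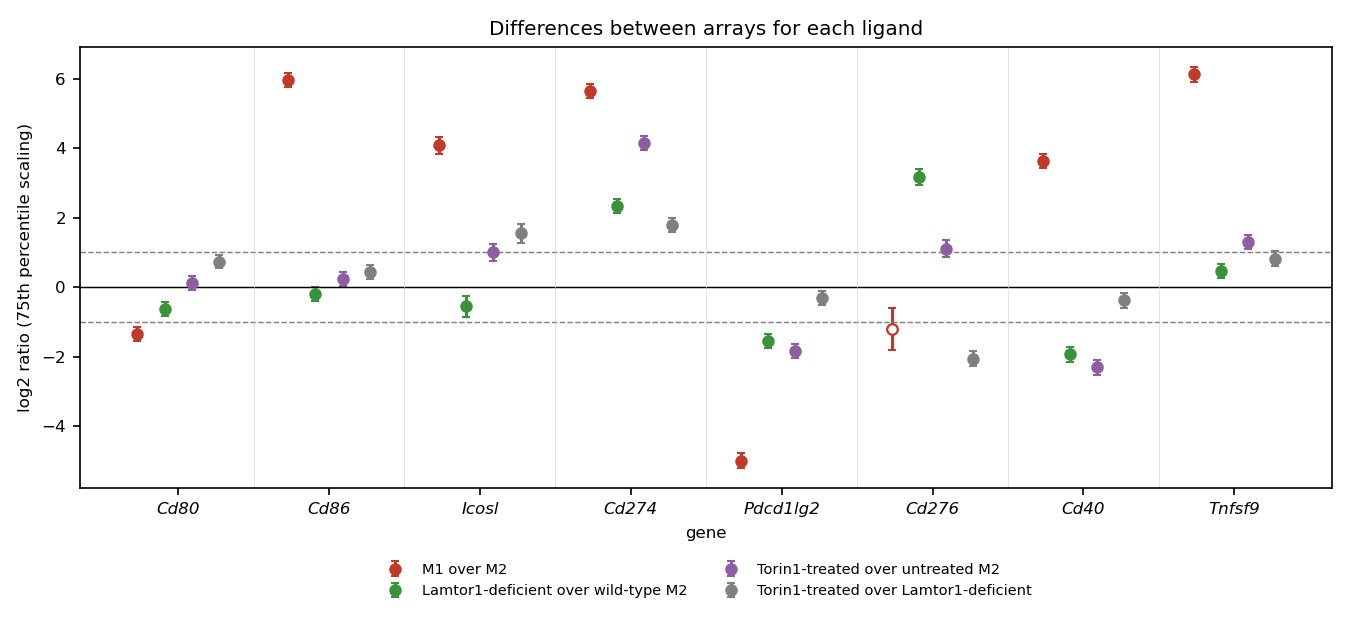
Log2 ratio of each ligand in 4 comparisons, with points for the brightest probe, bars for the error from the scanner software, dashed lines at 2-fold and an open point where only 1 of the arrays compared was well above background. Cd274 is above 0 in all 4 comparisons, from 1.8 to 5.66, and Cd40 and Pdcd1lg2 are below 0 after Lamtor1 loss and after Torin1.

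Under the M1 stimulus, 5 of the 8 members (Cd40, Cd86, Cd274, Icosl and Tnfsf9) were 2-fold or more above M2, and 30.7% of all named genes were. Another 3 (Cd80, Pdcd1lg2 and Cd276) were 2-fold or more lower, and 19.2% of all genes were. Cd276 is counted here by a signal not well above background, with a bound under 2-fold, and Cd80 by its brighter probe. The median log2 ratio over the 8 members was 3.86 and that over all genes was 0.75. The M1 array had the lowest 75th percentile (a signal of 287, against 470 to 595), and with a shift of each array to its median the all-gene median became −0.07. Every member then shifted by −0.82 as well, and Cd40, Cd86, Cd274, Icosl and Tnfsf9 remained 2-fold or more higher, with Cd40 the lowest of them at 2.81. In that setting 33% of the genes past 2-fold were higher, against 61.6% with the 75th percentile, and with quantile normalization the figure was 44%.

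Without Lamtor1, 2 of the 8 members (Cd274 and Cd276) were 2-fold or more above M2, with 8.9% of all named genes, and 2 (Cd40 and Pdcd1lg2) were 2-fold or more lower, with 8.71% of all genes. The members' median log2 ratio was −0.37 and that of all genes 0.04. After Torin1, 3 members (Cd274, Cd276 and Tnfsf9) were 2-fold or more higher, with 14.3% of all named genes, and 2 (Cd40 and Pdcd1lg2) were lower, with 11.7%. The medians were 0.62 for the members and −0.05 for all genes. With a shift to the median, 39% of the genes past 2-fold after Torin1 were higher, against 55% here. With that shift, quantile normalization or normexp background correction, 2 members were 2-fold or more higher after Torin1. With the percentile taken over probes well above background, 4 members were. Both comparisons share the M2 array, so the members' values are set side by side only.

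Set directly against each other, the Torin1-treated array was 2-fold or more above the Lamtor1-deficient array for 2 members (Cd274 and Icosl), with 12.8% of all named genes. It was 2-fold or more lower for 1 member (Cd276), with 11.6%. The other 5 members differed by less than 2-fold by their brightest probe, between −0.38 (Cd40) and 0.82 (Tnfsf9). The dimmer Cd80 probe was 2.62-fold lower here (−1.39 ± 0.23), against 0.74 ± 0.2 for the brighter one. The members' median was 0.59 and that of all genes −0.12, and 52.4% of the genes past 2-fold were higher, against 32.6% with a shift to the median and 62.5% with the percentile taken over probes well above background. The Torin1 cells were wild type and exposed to the drug for 2 days, while the Lamtor1-deficient cells lacked the gene before stimulation, so genotype and drug differ between these arrays and their parts cannot be told apart.

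**Figure D3:**
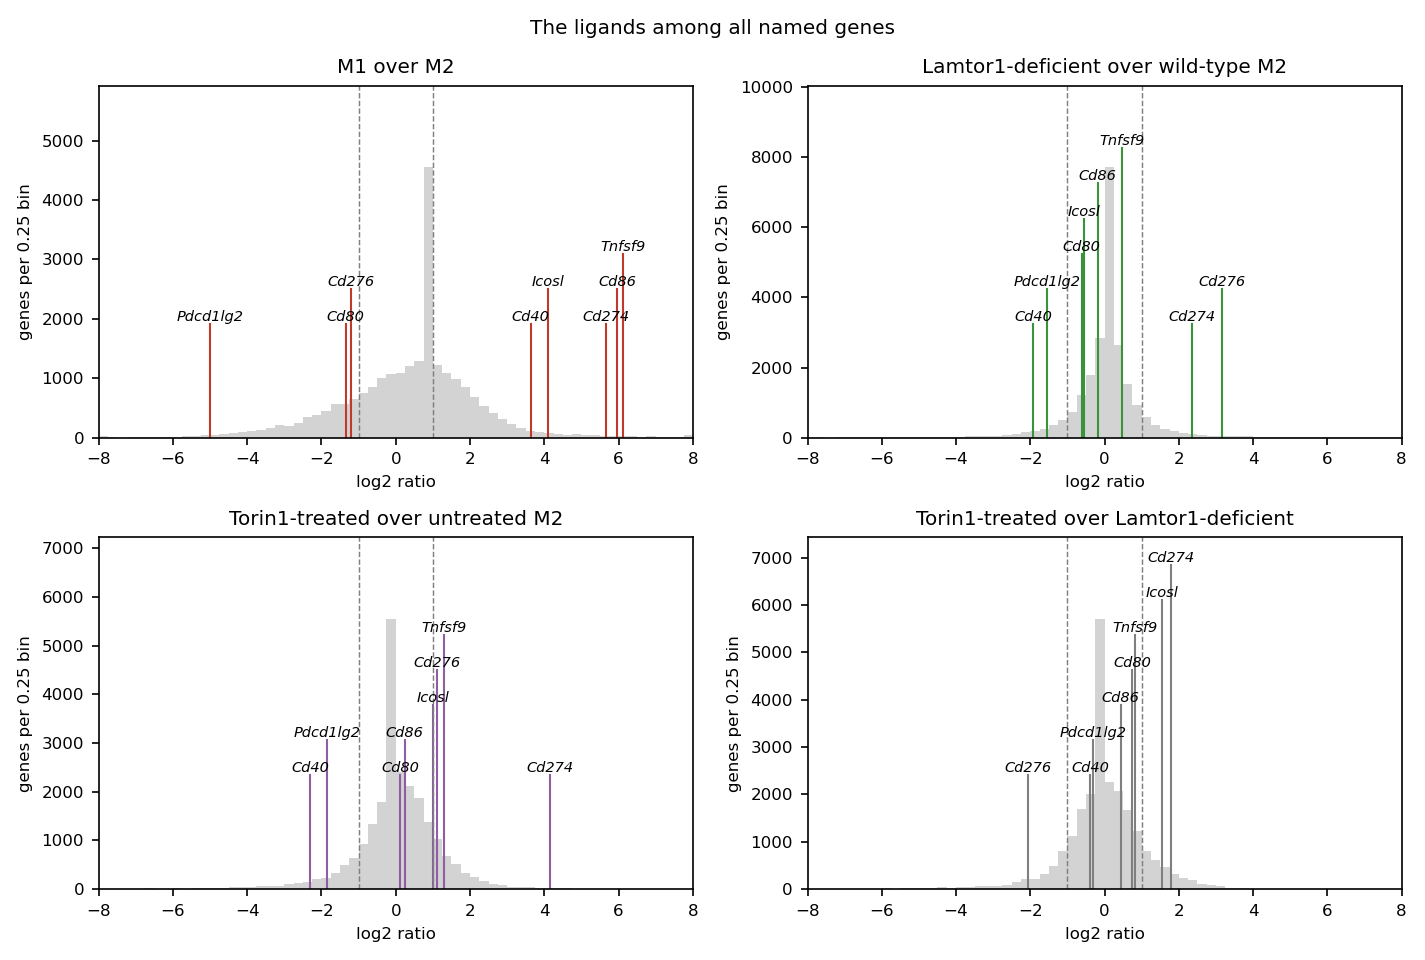
Number of named genes in bins of 0.25 log2 units for each of 4 comparisons (grey bars, with values beyond −8 or 8 in the end bins), dashed lines at 2-fold, and coloured lines at the log2 ratio of each ligand, whose height only separates the names. With the 75th percentile scaling the M1 over M2 distribution is centred above 0 (median 0.75), and Tnfsf9, Cd86 and Cd274 lie far to its right at 6.13, 5.97 and 5.66.

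Related ligands were described from lists of genes, whose counts stand beside the shares of all named genes. A gene well above background on 1 of the arrays compared was counted only where its bound reached 2-fold, a rule applied to the lists after the data had been seen. Counted by this rule too, 19.3% of all named genes were higher and 17.2% lower in M1, 6.27% and 6.14% without Lamtor1, and 8.64% and 9.61% after Torin1, below the shares given above for the members. The medians over all genes were 0.75, 0.04 and −0.05. Of 12 other B7, butyrophilin and checkpoint ligands, 10 were well above background on each array, and their median log2 ratio was 1.05 in M1, −0.16 without Lamtor1 and −0.12 after Torin1. In M1, 7 of the 12 were 2-fold or more higher and none was lower, but with a shift to the median 3 were higher and 2 lower. Without Lamtor1, 3 were higher and 2 lower (3 and 1 with a shift to the median). After Torin1, 3 were higher and 1 lower (1 and 1 with that shift). Cd200, whose receptor restrains myeloid cells, was the gene of this list with the highest ratio in all 3 comparisons with M2, at 99.1-fold, 26.9-fold and 66.1-fold. Its processed signal, before scaling between arrays, was 131 in M2, 3167 in Lamtor1-deficient, 6236 in M1 and 6824 in Torin1-treated BMDMs, so that, like Cd274, it was lowest in M2. Btnl2, a butyrophilin-like inhibitor of T cells, was 16.5-fold higher without Lamtor1 and 2.24-fold higher after Torin1. Its processed signal in M2 was 28.6, near the lowest signal well above background on that array (21.6). Vsir, which encodes the checkpoint ligand VISTA, was 2.05-fold lower without Lamtor1 and 2.29-fold higher after Torin1.

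Of 9 other TNF-family ligands on the array, no more than 5 were well above background on any array. In M1, 3 were 2-fold or more higher and 1 lower, without Lamtor1 1 was higher and 2 lower, and after Torin1 1 was higher and 3 lower. Tnfsf15, the ligand of death receptor 3, was the member of this list measured on all 4 arrays that was higher in each comparison with M2, by 12.3-fold in M1, 4.03-fold without Lamtor1 and 11.6-fold after Torin1. Tnfsf10, the death ligand TRAIL, was higher in M1 (log2 ratio 3.39), 3.61-fold lower without Lamtor1 and at least 5.38-fold lower after Torin1. This is the order of signs that Cd40 showed. Tnfsf14, also called LIGHT, was 12.3-fold higher in M1, at least 2.28-fold lower without Lamtor1 and at least 2.54-fold lower after Torin1.

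The T cell partners of the members, which are receptors and, for Cd40, its ligand, were mostly at background. Of the 6, 2 were well above background on each array. Ctla4, Pdcd1, Icos and Cd40lg, the partners of Cd80 and Cd86, of the PD-1 ligands, of Icosl and of Cd40, were well above background on none of the 4 arrays. Tnfrsf9, the receptor of Tnfsf9, was 3.45-fold lower without Lamtor1 and 5.3-fold lower after Torin1. Cd28 was well above background on all 4 arrays, 22.9-fold higher without Lamtor1 and 2.97-fold higher after Torin1. The part of T cells in its level was not tested.

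CD40 signals through TRAF proteins, and 8 genes of this route and of alternative NF-κB were well above background on every array. In M1, 4 were 2-fold or more higher and 1 lower (2 and 1 with a shift to the median). Without Lamtor1, 2 were lower and none higher, and after Torin1, 2 were lower and 1 higher. Traf1, an adaptor that CD40 recruits, was 11.4-fold higher in M1, 2.11-fold lower without Lamtor1 and 2.24-fold lower after Torin1, which are the signs of Cd40. Traf5 was the other gene lower under each perturbation, by 2.69-fold and 4.04-fold. Traf6 was the gene higher after Torin1, by 3.29-fold. The median log2 ratio of the 8 genes was −0.4 without Lamtor1 (all genes 0.04) and −0.03 after Torin1 (all genes −0.05).

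Among 12 regulators of the interferon-γ response, all well above background on every array, 6 were 2-fold or more higher and 3 lower in M1 (5 and 4 with a shift to the median), with Ciita 2.86-fold and Ifngr1 2.61-fold lower there. None was 2-fold higher without Lamtor1 (6.27% of all genes by the same rule) and 2 were lower (6.14%). After Torin1, 1 was higher (8.64%) and 4 were lower (9.61%), while Cd274 was higher in both comparisons. The gene higher after Torin1 was Irf1, a transcription factor known to act on Cd274. Irf1 was 2.79-fold higher after Torin1, 1.17-fold higher without Lamtor1 and 13.3-fold higher in M1. Its part in the level of Cd274 was not tested. Irf7 was 64.3-fold higher in M1 and 5.37-fold lower without Lamtor1. Ciita, the activator of MHC class II genes, was 5.38-fold lower without Lamtor1 and 6.53-fold lower after Torin1. Socs1, an inhibitor of JAK signalling, was 4.44-fold lower after Torin1, and Jak2 and Ifngr1, a kinase and a receptor chain of the interferon-γ signal, were 3.31-fold and 2.01-fold lower.

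Of 14 regulators of the IL-4 response and M2 genes, 7 were 2-fold or more lower without Lamtor1, where 6.14% of all genes were, and 10 after Torin1, where 9.61% were. In M1, 9 were lower and 2 higher, and after Torin1 none was higher. Irf4 and Stat6, transcription factors of the IL-4 response, were named after their values were seen. Irf4 was 1.69-fold lower without Lamtor1 and 3.15-fold lower after Torin1, and Stat6 was 1.04-fold and 1.06-fold above M2. Without Lamtor1, 2 genes of the list were 2-fold or more higher, and these were the chemokines Ccl17, at 6.1-fold, and Ccl22, at least 39.3-fold. The list was put together from general knowledge of M2 genes with results of these arrays known, so its direction is not independent evidence.

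**Figure D4:**
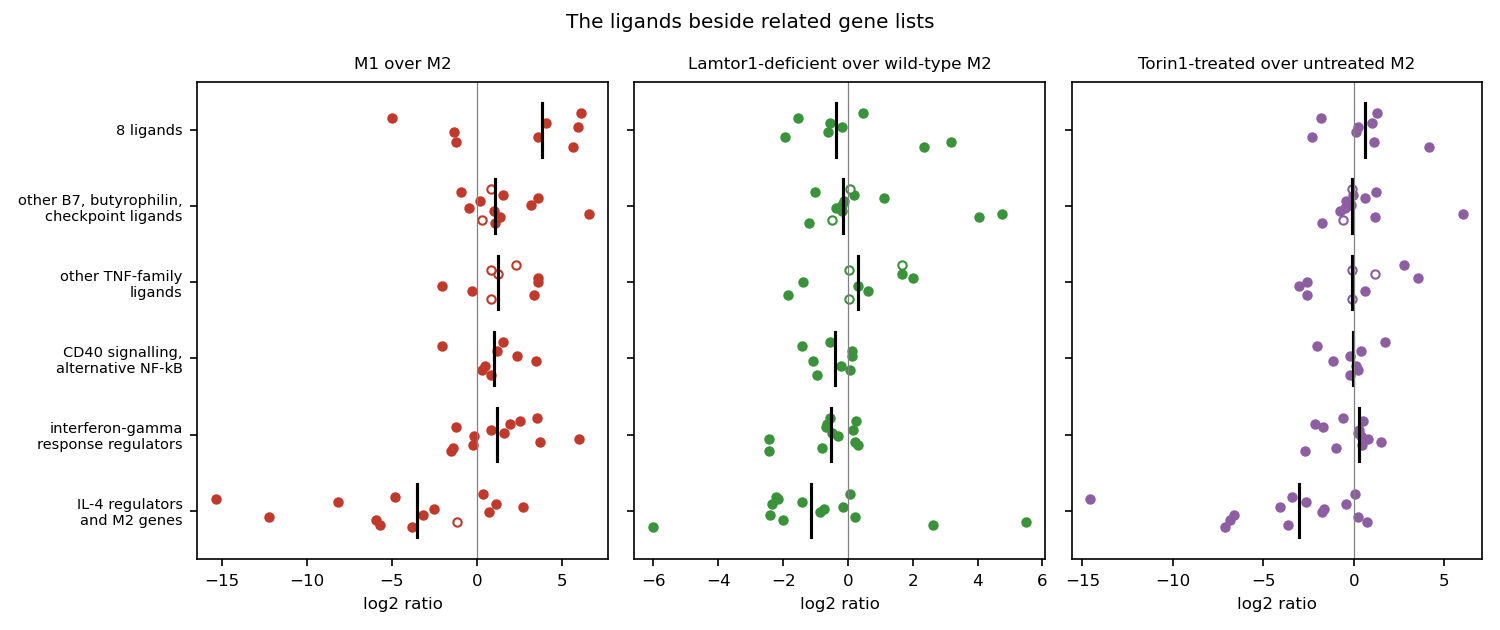
Log2 ratios to M2 of the 8 ligands and of 5 related gene lists in M1, Lamtor1-deficient and Torin1-treated BMDMs (1 point a gene, brightest probe, black bars for medians, open points where the probe was well above background on neither array). The horizontal axes differ between panels, and after Torin1 the median of the IL-4 list is at −3.03 and that of the ligands at 0.62.

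Other cell types were followed by their markers, since each of them can carry these ligands. Of 8 dendritic cell markers, 3 to 5 were well above background on an array, and Xcr1, Cd209a and Dpp4 on none. In M1, 3 were 2-fold or more higher, and without Lamtor1 and after Torin1 it was 1 each, Ccr7 at 5.83-fold and Clec9a at least 3.92-fold. Of 7 neutrophil markers on the array, 6 were 2-fold or more below M2 in each of the M1, Lamtor1-deficient and Torin1-treated arrays (Elane was 4.19-fold higher in M1 and 1.5-fold higher without Lamtor1, and its spots were left out on the Torin1-treated array), with medians of −3.3, −3.49 and −4.41. Of 6 fibroblast markers, 4 were 2-fold or more lower and 1 higher in M1, 3 were lower after Torin1, and 2 were higher without Lamtor1. Of the B cell markers, Ms4a1 was well above background on none of the arrays and Cd79a and Cd79b on all 4. Cd79a was 3.57-fold lower without Lamtor1 and 3.05-fold lower after Torin1. Cd79b was 6.64-fold lower in M1, 1.87-fold lower without Lamtor1 and 11.3-fold lower after Torin1, and Cd40 was also lower in the last 2 of these. The part of these cells in the levels of the 8 ligands was not tested.

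For each member well above background on all 4 arrays, the genes whose 3 log2 ratios to M2 lay closest were found among 12915 others, by the root mean square difference over the 3 ratios. Cd274 had the fewest genes within 0.5 of the 7 members in this measure. The 1 gene was Stx11 at 0.49 (5.59 in M1, 2.05 without Lamtor1 and 3.35 after Torin1). Few genes have ratios as large as those of Cd274, so such a count partly follows the size of the ratios. Pdcd1lg2 lay closest to Fyn, at 0.09, and then Scamp5 and Nav1, with 10 genes within 0.5. Cd40 lay closest to Slc28a2, at 0.11, with 6 genes within 0.5. Cd86 lay closest to Igtp, Iigp1 and Isg15, at 0.24 to 0.32. Tnfsf9 lay closest to Il12rb1, Il18bp and Rassf8, at 0.34 to 0.38. Icosl lay closest to 2810455B08Rik, Rasgrp4 and 2310058N22Rik, at 0.14 to 0.17, with 23 genes within 0.5, and Cd80 to 2810408M09Rik, Tonsl and Arhgef1, at 0.03 to 0.07, with 700. All 3 ratios share the M2 array, so the likeness is a description.

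The values of the members were recomputed in 8 other settings of scaling, background, floor, spot filter, source and probe choice. Of the 32 log2 ratios of the members, 20 were past 2-fold, of which 19 kept their sign and 16 stayed past 2-fold in all 8 settings. Cd274 stayed between 4.84 and 5.66 in M1, between 2.22 and 2.41 without Lamtor1 and between 3.9 and 4.23 after Torin1. Pdcd1lg2 stayed between −1.66 and −1.47 without Lamtor1 and between −2.09 and −1.76 after Torin1. Cd40 stayed between −2.0 and −1.7 without Lamtor1 and between −2.55 and −1.99 after Torin1. The directions of these 3 genes were the same in each setting. Cd276 without Lamtor1 ranged from 2.18 to 3.24, and after Torin1 from 0.7 to 1.2, so that after Torin1 it was under 2-fold in some settings.

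**Figure D5:**
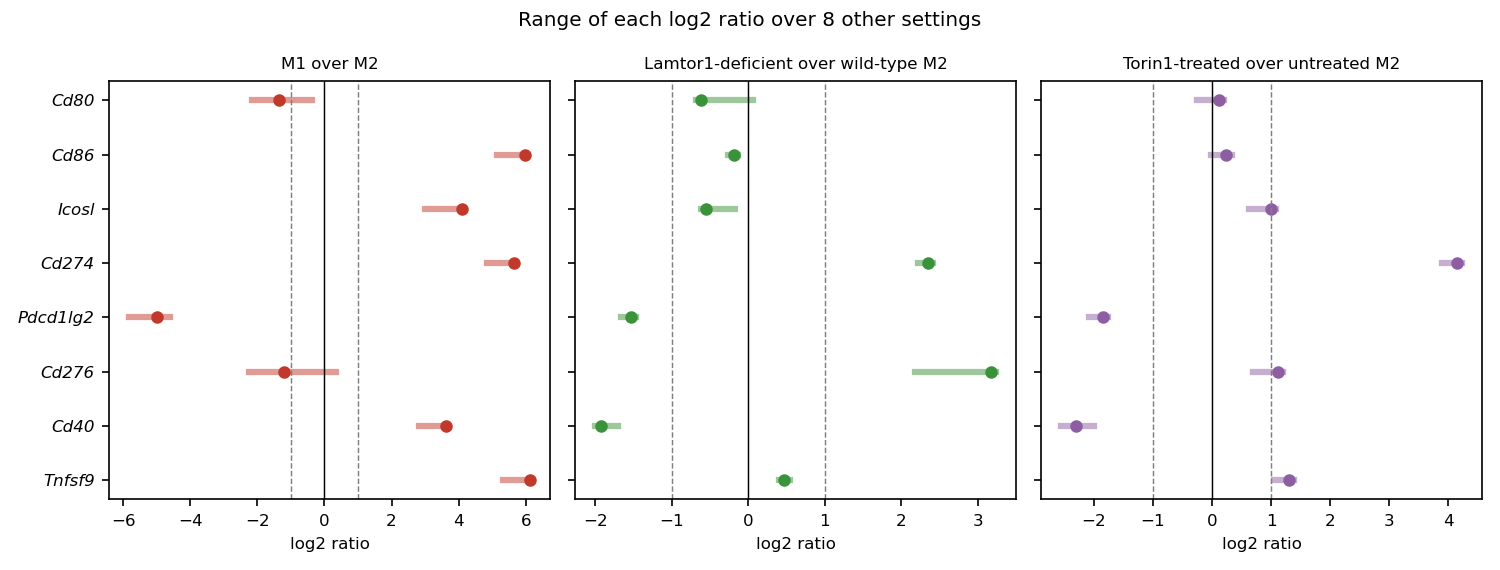
Log2 ratio to M2 of each ligand in the reported setting (points) and its range over 8 other settings of processing (bars), for M1, Lamtor1-deficient and Torin1-treated BMDMs, with dashed lines at 2-fold. Cd276 in M1 crosses 0 (from −2.25 to 0.34), where its probe was not well above background, and Cd274 without Lamtor1 stays between 2.22 and 2.41.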

How the data were processed

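RNA of 4 BMDM cultures was measured on 4 Agilent 1-colour whole mouse genome arrays, 1 for each condition. The authors deposited spot intensities as the scanner software wrote them, with the processed signal background-subtracted and detrended within the array but not normalized between arrays. The file headers name version 10.7.3.1 of Agilent Feature Extraction and the labels version 10.5.1.1. The series-wide table that the authors deposited differs from these intensities by 0.497% at most.

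Following the study's methods, signals under 1 were set to 1 and each array was divided by its 75th percentile over non-control probes, on the log2 scale. Control spots and the 170 to 226 spots per array marked as outliers were left out, and spots of a probe were averaged, which left 55679 of 55681 probes with a value. A name counted as a gene unless it was an accession, probe identifier or lincRNA locus, and 21884 of 23545 (92.9%) were in the RefSeq table. The brightest probe, by mean log2 signal over the 4 arrays, stood for a gene. A probe well above background on 1 of the arrays compared gives only a bound, against the lowest signal well above background (15.7 to 21.6). Between 50.9% and 55.4% of probes were well above background. Over all probes, 35.4% were 2-fold or more higher and 13.9% lower in M1, 7.79% and 8.76% without Lamtor1, 16.5% and 9.32% after Torin1, and 16.2% and 9.05% in Torin1-treated over Lamtor1-deficient BMDMs.

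The members and gene lists were chosen with earlier results of these data known. Named were all members, up to 4 genes of a list past 2-fold in each direction and above background, the targeted gene and, for each member, the 3 genes with the closest ratios. List genes named at or under 2-fold or as not well above background fall outside this rule and were named after their values were seen. Alternatives were a median shift, quantile normalization, normexp with offset 50, the percentile restricted to probes that all arrays measured above background, a floor, outlier spots kept, the mean over a gene's probes, the series table, a filter on dim members and a 3-fold threshold. For the lists, the bound rule and a median shift were added after seeing the data. The procedure was tested on simulated data. Some single genes and a motif are not reported here. Tables and figures were made in Python 3.11.15 (matplotlib 3.10.9, pandas 2.3.3, NumPy 2.4.6). Normexp was run in limma 3.58.1 under R 4.3.3.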

Additional observations from a re-analysis of the deposited data

How the results depend on the processing

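No paired analysis was possible because every label gives replicate 1 only, so the conditions share fewer than 2 replicate numbers. With 1 array per condition, leaving out a replicate was not possible, and the number of arrays limits every value.

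Of the 20 member ratios past 2-fold, Cd276 in M1, not well above background there, was reversed by normexp (0.34). At a 3-fold threshold, the members lower in M1 became 1 (Pdcd1lg2), those lower without Lamtor1 1 (Cd40), those higher after Torin1 1 (Cd274) and those higher in Torin1-treated over Lamtor1-deficient BMDMs 1 (Cd274), and normexp left 1 in the last, with Icosl there at 0.8.

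The member median in M1 was 3.04 with the median shift, 3.76 with quantile normalization and 3.23 with normexp. Without Lamtor1 it was −0.17 with normexp and −0.06 with the mean over a gene's probes. After Torin1 it was 0.37 with the median shift and 0.42 with normexp. In Torin1-treated over Lamtor1-deficient BMDMs it was 0.28 with the median shift, 0.74 with the percentile over probes well above background and 0.06 with the mean over a gene's probes. The mean over probes brings in the dimmer Cd80 probe, which runs the other way.

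Counts over all genes moved too. With the median shift, 3674 were higher and 7453 lower in M1, and 4236 were lower in Torin1-treated over Lamtor1-deficient BMDMs. Quantile normalization gave 4407 higher in M1. The floor gave 4652 higher in M1, 2031 after Torin1 and 1758 in Torin1-treated over Lamtor1-deficient BMDMs. Normexp gave 1086 higher and 973 lower without Lamtor1, 1396 and 1694 after Torin1, and 1109 and 1643 between the perturbed arrays. The cause was not tested.

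The median shift moved the all-gene median by −0.82 in M1, −0.25 after Torin1 and −0.31 between the perturbed arrays. Quantile normalization moved it by −0.81 in M1. Normexp moved it by 0.26 after Torin1 and 0.2 between the perturbed arrays, where the percentile over probes well above background moved it by 0.15.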

Other observations

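The protein-coding genes around Cd274 and Pdcd1lg2 on chromosome 19, in the order of the RefSeq table of GRCm38.p6, were looked at after the values of the pair had been seen. Plgrkt, next to Cd274 on the side away from Pdcd1lg2, had log2 ratios to M2 of 2.99 in M1, −0.14 without Lamtor1 and 0.72 after Torin1. Ric1, next to Pdcd1lg2 on the other side, had 2.14, −0.16 and −0.12. Jak2, the kinase of the interferon-γ receptor, had −1.24, −0.68 and −1.73. Neither adjoining gene was 2-fold or more from M2 without Lamtor1 or after Torin1, where Cd274 was at 2.35 and 4.15 and Pdcd1lg2 at −1.54 and −1.84.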
